A study of Homo sapiens with 20 samples.

Results

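In FBXW7 knockout HCT-116 cells that received the control esiRNA, 2 libraries of oxaliplatin-treated cells (OXPT A and B) were set against 2 libraries of untreated cells (UNT A and B), 4 of the 16 libraries with lists in the series. Each library had a list of peaks of histone H3 acetylated at lysine 27 (H3K27ac) and a list of super-enhancers (SEs). The lists of the 4 libraries were merged wherever they overlapped by at least 1 bp on chromosomes 1 to 22 and X, which gave 27522 peak regions and 1024 SE regions. A region was counted as gained when both OXPT libraries and neither UNT library called it, and as lost in the opposite case. There were 1114 gained and 90 lost peak regions, and 94 gained and 3 lost SE regions.

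HCT-116 is a colorectal carcinoma cell line. All 4 libraries came from the FBXW7-/- (KO) line, which was obtained from a supplier and is 1 engineered line, and all cells were kept for 48 h with esiCT, a control pool of enzymatically made siRNAs against luciferase. The treated cells received 50 µM oxaliplatin for the last 24 h, and the untreated cells received water, its solvent. The 4 matching esiCT libraries of the parental HCT-116 line with intact FBXW7 (WT) served as comparison. The question put to these cells was how enhancer acetylation responds to the drug when FBXW7 is missing. The labels state that experiments were pooled and do not say how the letters A and B relate to them, so the spread between letters may not equal that between single experiments.

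FBXW7 is the substrate-binding part of a ubiquitin ligase that marks MYC, cyclin E, JUN, NOTCH1, MCL1 and other proteins for degradation. Oxaliplatin is a platinum drug that forms adducts on DNA and is part of standard chemotherapy for colorectal cancer. H3K27ac marks active promoters and enhancers, and clusters of strongly marked enhancers that lie close together are called SEs. They are often found near genes that define a cell type. A peak caller measures enrichment within 1 library, so a peak list tells where the mark stood out from that library's own background and not how much of it there was in the cell.

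Of 12 marker genes of colon epithelium, 7 had a peak at a start site in UNT A, 5 in UNT B, 10 in OXPT A and 5 in OXPT B. Of all protein-coding genes these libraries called 28.4%, 9.03%, 45.3% and 13.9% in the same order. Of 12 marker genes of blood, stroma, vessel, liver, nerve and muscle cells, 1 had a peak in each A library and none in the B libraries. At the start site of FBXW7 itself a peak was called in OXPT A alone, which tests H3K27ac and not the knockout.

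The sequences around the summit of 7 regions are printed as examples, and they do not represent the switched regions as a whole. AP-1 motifs were in 7 of 63 lost distal windows, in 0 of 27 lost promoter windows and in 4.38% of gained promoter windows. Each window has 201 bases of the plus strand of hg38 centred on the summit of the strongest peak. They are 2 of the gained promoters and 2 of the gained distal regions with the highest summit fold, 2 lost distal regions that hold an AP-1 motif, and 1 region that was called in all 4 libraries and had a lower fold after OXPT. Capitals mark a motif: AP-1 (TGANTCA) in TXNL4A, PCDH7 and FRRS1, KLF/SP (GGGNGGGG) in FOXJ2, TCF/LEF (CTTTGAT) at the second stretch in FRRS1, and the MEF2 motif in GRIN2B, each read on both strands. The THUMPD2 and CHST6 windows held none of the 7 motifs searched.
THUMPD2 promoter, gained, chr2:39778629-39778829: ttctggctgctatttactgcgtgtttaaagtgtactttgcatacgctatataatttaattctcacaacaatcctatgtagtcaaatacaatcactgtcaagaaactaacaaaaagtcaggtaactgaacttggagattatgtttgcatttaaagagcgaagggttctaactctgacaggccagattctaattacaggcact
TXNL4A promoter, gained, chr18:79987754-79987954: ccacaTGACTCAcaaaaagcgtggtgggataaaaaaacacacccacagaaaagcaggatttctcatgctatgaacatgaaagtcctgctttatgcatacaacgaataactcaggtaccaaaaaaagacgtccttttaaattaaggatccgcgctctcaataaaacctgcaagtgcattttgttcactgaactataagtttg
near FOXJ2, gained, chr12:8026891-8027091: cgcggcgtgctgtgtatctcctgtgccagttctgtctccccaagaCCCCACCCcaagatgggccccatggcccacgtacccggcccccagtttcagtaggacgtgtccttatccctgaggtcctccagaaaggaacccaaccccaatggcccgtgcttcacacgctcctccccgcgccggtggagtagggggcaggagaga
CHST6 intron, gained, chr16:75483557-75483757: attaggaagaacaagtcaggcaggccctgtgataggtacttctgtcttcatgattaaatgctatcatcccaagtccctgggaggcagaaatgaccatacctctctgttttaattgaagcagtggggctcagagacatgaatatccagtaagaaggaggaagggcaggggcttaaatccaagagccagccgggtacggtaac
PCDH7 intron, lost, chr4:30746955-30747155: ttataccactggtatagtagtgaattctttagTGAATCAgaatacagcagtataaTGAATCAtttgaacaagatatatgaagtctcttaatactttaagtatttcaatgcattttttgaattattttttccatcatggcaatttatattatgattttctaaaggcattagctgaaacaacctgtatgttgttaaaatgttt
FRRS1 intron, lost, chr1:99757329-99757529: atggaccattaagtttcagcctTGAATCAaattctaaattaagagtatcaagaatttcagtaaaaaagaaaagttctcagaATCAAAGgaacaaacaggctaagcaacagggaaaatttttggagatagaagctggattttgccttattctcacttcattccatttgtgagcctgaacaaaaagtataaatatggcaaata
GRIN2B intron, called in all libraries, chr12:13574683-13574883: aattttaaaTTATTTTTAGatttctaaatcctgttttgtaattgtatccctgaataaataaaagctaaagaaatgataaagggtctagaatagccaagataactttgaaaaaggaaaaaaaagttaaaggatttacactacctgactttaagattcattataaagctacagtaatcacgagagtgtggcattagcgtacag

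The libraries differed in depth and in the length of their lists, and these differences ran through every count that follows. UNT A had 12639 peaks, UNT B 6126, OXPT A 21875 and OXPT B 8216. The background that fold and p-value imply was 1.52, 1.502, 2.13 and 1.29 reads under a summit in the same order. OXPT A was thus the deepest and OXPT B the shallowest library, and within each letter the treated library had the longer list. At that background the lowest summit fold that could be called, which is smaller where local background is higher, was 3.57 in UNT A, 3.60 in UNT B, 3.19 in OXPT A and 3.49 in OXPT B. List length did not follow this background alone, since UNT A and UNT B had nearly the same value and 12639 and 6126 peaks. The source of that gap was not tested. Absence from a list therefore means only that no peak could be told from that library's own background.

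More SEs were listed after OXPT in both letters. UNT A had 287 SEs, UNT B 271, OXPT A 930 and OXPT B 435, so both treated libraries lay above both untreated ones. The log2 ratio was 1.70 in letter A and 0.68 in letter B, with a mean of 1.19 (two-sided exact permutation test within letters, p = 0.5, the smallest that 2 pairs allow). Per 1000 peaks there were 22.7 SEs in UNT A, 44.2 in UNT B, 42.5 in OXPT A and 52.9 in OXPT B. On that scale the groups overlapped, UNT B lying above OXPT A, and the mean log2 ratio was 0.58 with the same p of 0.5 (exact permutation test). The length of genome inside SEs was 6.01 Mb in UNT A, 4.57 Mb in UNT B, 13.99 Mb in OXPT A and 6.19 Mb in OXPT B. OXPT A thus held by far the longest SE territory, while OXPT B and UNT A differed little.

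**Figure D1:**
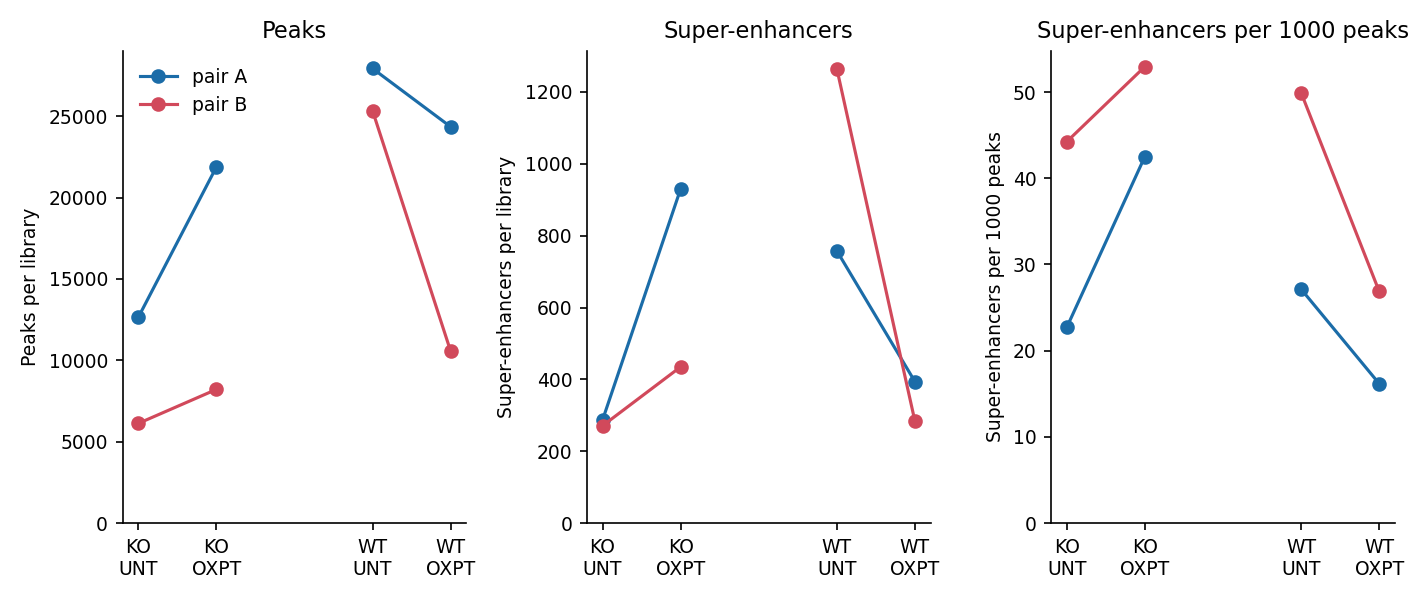
Number of peaks, number of SEs and SEs per 1000 peaks (vertical axes) in each esiCT library, KO on the left and WT on the right, each line joining the untreated and treated library of one letter. Both KO lines rise in each panel and both WT lines fall, with SE numbers going from 287 to 930 and from 271 to 435 in KO cells and from 758 to 394 and from 1265 to 284 in WT cells.

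In WT esiCT cells the SE numbers went the other way, with log2 ratios of -0.94 and -2.16. The response in KO cells minus that in WT cells was 2.74 on the log2 scale (exact permutation of the genotype over 4 pairs, p = 0.33, the smallest possible). Per 1000 peaks it was 1.40. For the number of peaks the same difference was 1.34, with p = 0.33 in the same exact test. None could pass a threshold of 0.05 in this design.

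The 94 gained SE regions made up 9.18% of the 1024 SE regions, and the 3 lost ones 0.293%. Another 148 regions were SEs in all 4 libraries, and 494 were called in OXPT A alone. Of the gained regions 18 came within 1 kb of a protein-coding start site, 21 overlapped an exon without such a start site, 19 lay within introns and 36 were intergenic. Their median width was 11.9 kb, from 2.55 to 52.9 kb, and the stretch shared by both OXPT libraries had a median of 5.52 kb.

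Most gained SE regions, like most SE regions, held H3K27ac peaks without treatment. A peak lay inside 88 of the 94 in UNT A, beside 860 of all 1024, and inside 81 in UNT B, beside 741 of all. In 3 gained regions there was a peak in neither, beside 106 of all. The median number of peaks inside a region was 2 in both UNT libraries, 4 in OXPT A and 3 in OXPT B. The median length covered by peaks was 1574 bp in UNT A, 1009 bp in UNT B, 4028 bp in OXPT A and 1802 bp in OXPT B. Thus 80 of 94 regions had more peak length after OXPT in both letters, beside 85 of the 148 regions that were SEs in all 4 libraries and 550 of all 1024. The gained regions were chosen by the SE calls, which are made from the same peaks, so this is a description of them.

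The height of the strongest peak moved much less than the covered length. The median of the highest summit fold in a gained region was 5.19 in UNT A, 5.17 in UNT B, 5.50 in OXPT A and 5.39 in OXPT B. Of the 78 gained regions with a peak in all 4 libraries, 34 had a higher top fold after OXPT in both letters. Among the 148 regions that were SEs in all 4 libraries, 54 did.

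The gained SE with the longest shared stretch covered the start site of KITLG, which encodes the ligand of the receptor KIT (chr12:88536496-88581460, 45.0 kb). It held 2 peaks in UNT A, 3 in UNT B, 9 in OXPT A and 8 in OXPT B. These covered 3592 bp in UNT A, 2993 bp in UNT B, 11710 bp in OXPT A and 4287 bp in OXPT B. Both treated libraries lay above both untreated ones in number and length of peaks, while the highest summit fold was 6.56, 6.85, 6.80 and 5.26 in the same order and was lowest in OXPT B. The widest gained SE lay 6.21 kb from SOCS3, an inhibitor of cytokine signalling (chr17:78300992-78353860, 52.9 kb). It held 4 peaks in UNT A, 1 in UNT B, 11 in OXPT A and 5 in OXPT B, with 2844, 1366, 7013 and 1726 bp of peaks in that order. Here OXPT B lay below UNT A in length, so the groups overlapped.

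Others of the 15 gained SEs with the longest shared stretch lay at TMOD3, MYO1E, SSH1 and AHNAK and near EZR. At TMOD3 (chr15:51863194-51876491), which caps actin filaments, peaks covered 369 bp in UNT A, 720 bp in UNT B, 6354 bp in OXPT A and 2937 bp in OXPT B. At MYO1E (chr15:59268201-59304862), an unconventional myosin, the lengths were 1441, 2648, 6925 and 3057 bp. Near EZR (chr6:158847057-158869656), which ties the cell membrane to actin, they were 3229, 3474, 9035 and 4215 bp. In all 3 regions both treated libraries exceeded both untreated ones. In the SE at SSH1 (chr12:108832800-108854525), a phosphatase that activates cofilin, the lengths were 2683, 1833, 7167 and 2282 bp, and OXPT B lay below UNT A. At AHNAK (chr11:62539697-62560350), a very large scaffold protein, they were 3072, 702, 6852 and 2209 bp, again with OXPT B below UNT A. These genes were named by their rank in shared length.

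CAB39, CDC42BPG and PHLDB2 also held gained SEs of this rank. The region in CAB39 (chr2:230775456-230795666), a scaffold that activates the kinase LKB1, had peaks over 1621 bp in UNT A, 1061 bp in UNT B, 4663 bp in OXPT A and 2582 bp in OXPT B. At CDC42BPG (chr11:64835758-64857485), a kinase that acts with CDC42, UNT B had no peak, UNT A 2025 bp, OXPT A 3582 bp and OXPT B 2130 bp. In both, all treated values were above all untreated ones. PHLDB2 (chr3:111846412-111875228), which anchors microtubules at the cell cortex, had 3422 bp in UNT A, 1041 bp in UNT B, 8391 bp in OXPT A and 1353 bp in OXPT B, so that OXPT A alone stood above the rest. The remaining regions of the 15 lay in APBB2, DNMBP, SPATS2 and ZNF704 and 418 kb from NR2F1. Of the 15 regions, 12 were still gained when a library had to cover 50% of a region, and those at SOCS3, SPATS2 and PHLDB2 were not.

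**Figure D2:**
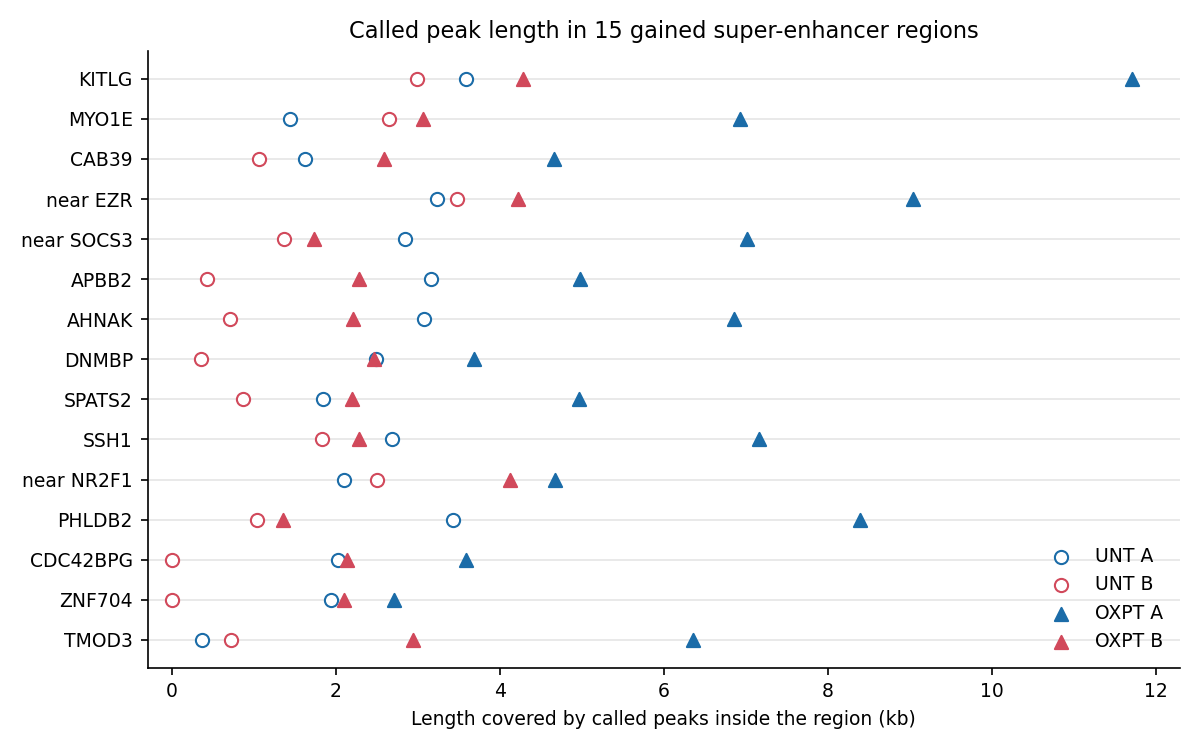
Length covered by called peaks (kb, horizontal axis) inside the 15 gained SE regions with the longest stretch shared by OXPT A and OXPT B, 1 line per region from the longest at the top. Open circles are untreated and filled triangles treated libraries, blue for letter A and red for letter B, with OXPT A farthest to the right in every region.

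The 3 lost SE regions were near RAI1, MPP7 and TACR3. At RAI1 (chr17:17684980-17695214), a regulator of transcription, there were 4 peaks in UNT A, 3 in UNT B, 2 in OXPT A and none in OXPT B. Peaks there covered 2408 bp in UNT A, 956 bp in UNT B and 2537 bp in OXPT A, the most of any library. The highest summit fold was also in OXPT A, at 6.58, beside 5.32 in UNT A and 4.66 in UNT B. Inside MPP7 (chr10:28215059-28221739), a scaffold of cell junctions, peaks covered 3528 bp in UNT A, 3087 bp in UNT B, 4458 bp in OXPT A and 2698 bp in OXPT B. The region 161 kb from TACR3, a tachykinin receptor (chr4:103553253-103559054), had 2508, 1614, 5211 and 2256 bp in that order. In both of these regions the untreated libraries had more peaks. OXPT A covered the most length in both, while at MPP7 OXPT B covered less than either untreated library.

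Of the list genes 8 were linked to a gained SE, 3 of them among the 22 adhesion and junction genes, beside 98 of all 19618 protein-coding genes. Linked to any SE region were 9 of the 22 adhesion and junction genes and 923 of all genes. AREG, an EGFR ligand, lay 26.7 kb from one (chr4:74395585-74418391), with peaks over 769 bp in UNT A, 290 bp in UNT B, 2712 bp in OXPT A and 1846 bp in OXPT B. EHF, an epithelial transcription factor, lay 13.8 kb from another (chr11:34586419-34607328), with 1404, 942, 4128 and 1833 bp. ZNRF3, a ubiquitin ligase that removes WNT receptors, held one in an intron (chr22:28975708-28983029), with 779, 0, 2568 and 1609 bp. In these 3 regions both treated libraries had more peak length than both untreated ones. The region at YAP1, the effector of the Hippo pathway (chr11:102107700-102122231), had 8140, 6316, 11786 and 6081 bp, and OXPT B was the lowest. ITGB8, RAD51B, CLDN3 and CLDN4 were the other 4, and CLDN3 and CLDN4 were linked to the same region (chr7:73787088-73810564). None of the 18 lists had a gene linked to a lost SE.

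Most gained SE regions were SEs in untreated WT cells. The WT esiCT UNT A list called 61 of the 94 (64.9%, beside 52.1% of all 1024 regions), and the WT esiCT UNT B list 79 (84.0%, beside 71.2%). After OXPT the WT A list called 34 (36.2%, beside 33.2%) and the WT B list 25 (26.6%, beside 24.5%). Both untreated WT lists called 56 of the 94, beside 491 of all 1024, and both untreated but neither treated list called 21, beside 174 of all 1024. The shares in the treated WT lists were close to those of all regions, and those in the untreated WT lists were above them. Of the 15 named regions, 14 were SEs in WT esiCT UNT A and 15 in WT esiCT UNT B.

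Gained peak regions were 4.05% and lost ones 0.327% of the 27522 peak regions. A further 2034 regions were called in all 4 libraries and 11133 in OXPT A alone. Promoter regions, within 1 kb of a protein-coding start site, made up 480 of the gained (43.1%) and 27 of the lost (30%), beside 44.2% of all regions and 37.1% of those called in all 4 libraries. Without OXPT A the order turned, with 31.0% promoters among gained and 52.3% among lost regions, and at a −log10 q of at least 10 promoters were 5 of the 51 gained regions (9.80%). Of the other gained regions 49 overlapped an exon, 263 were intronic and 322 intergenic. The lost ones held 2 exonic, 23 intronic and 38 intergenic regions. Gained regions had a median width of 770 bp, lost ones 585.5 bp and those in all 4 libraries 1973.5 bp.

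The balance between gained and lost depended on list length. When summit reads were scaled down to the shallowest library, 842 regions were gained and 124 lost. When each list was cut to its 6126 peaks of lowest q, the length of the shortest, 366 were gained and 216 lost. With a −log10 q of at least 10 there were 51 gained and 3 lost. Gained regions outnumbered lost ones in each of these settings, by less than 2-fold in lists of equal length.

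**Figure D3:**
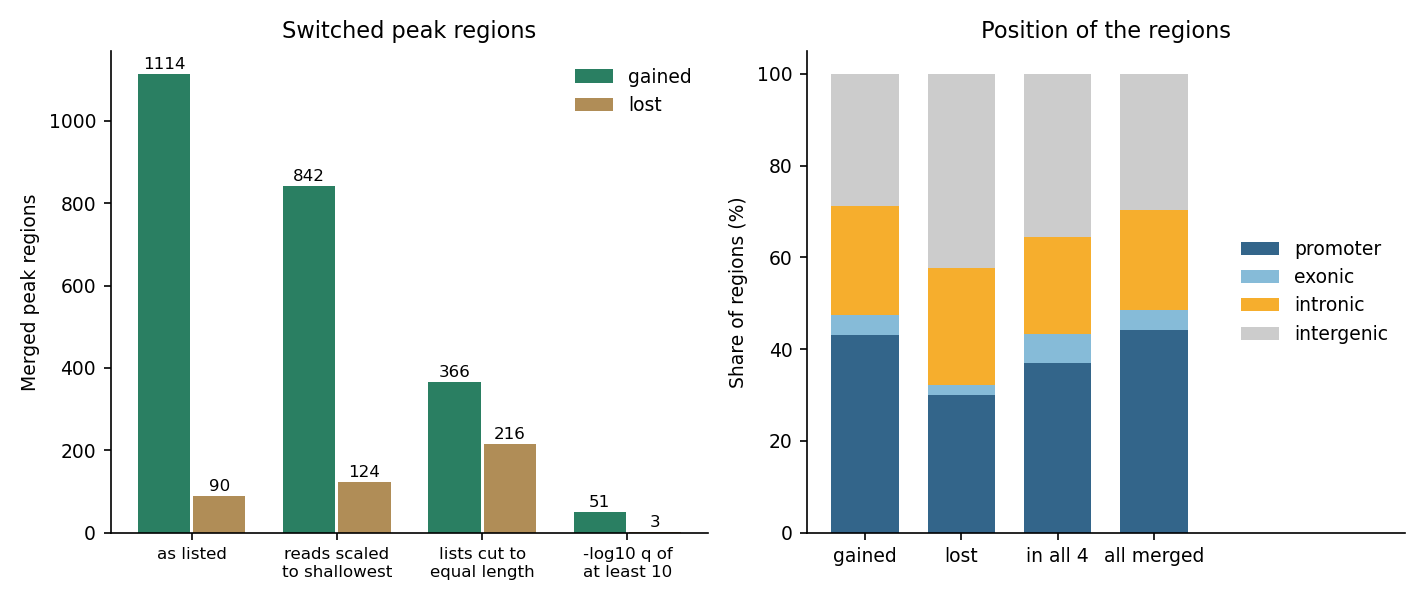
Left, number of gained and lost peak regions (vertical axis) in the lists as deposited and under 3 other treatments of the lists, from 1114 and 90 as listed to 366 and 216 in lists of equal length. Right, share of regions (%, vertical axis) that were promoter, exonic, intronic or intergenic among gained, lost, constantly called and all merged regions, with promoters at 43.1% of gained and 30% of lost regions.

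Switched peaks were mostly weak. The lower of both summit folds, that is the ratio of reads at the summit to the local background, had a median of 3.77 in gained regions (1.73 to 6.77) and 3.81 in lost ones (2.43 to 5.13). The median −log10 q of the weaker library was 2.89 in gained regions, and 231 of them (20.7%) were under 2, beside 25 of the 90 lost (27.8%). Regions just outside the rule, called in both OXPT libraries and in 1 UNT library, numbered 1775 and had a median lower OXPT fold of 4.02. Regions called in both UNT libraries and in 1 OXPT library numbered 729. A peak of the other condition lay within 500 bp of 215 gained regions (19.3%) and of 31 lost ones (34.4%). Within 1 kb there was one for 367 gained regions (32.9%) and 52 lost ones (57.8%).

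Among gained promoters, that of THUMPD2, an RNA methyltransferase, had the highest lower fold (chr2:39777929-39779437). Its summit fold was 6.76 in OXPT A and 7.17 in OXPT B, and in WT cells it was 4.43 in UNT A, 3.82 in UNT B and 7.28 in OXPT A, with no peak in OXPT B. The promoter of NR1H2, the nuclear receptor LXR beta (chr19:50375794-50376750), had folds of 5.94 and 6.55. That of PA2G4, an ERBB3-binding protein (chr12:56104638-56105777), had 5.96 and 5.72. These promoters had no peak in either untreated KO library and one in both untreated WT libraries.

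Among the other leading gained promoters, that of PARK7, a sensor of oxidative stress (chr1:7960706-7961385), had summit folds of 5.82 in OXPT A and 5.67 in OXPT B. TXNL4A, a splicing factor (chr18:79987151-79989642), had 6.74 and 5.48. The regions at ESF1 and NDUFAF5, at GLT8D1 and SPCS1, and at SLC39A1 and CREB3L4 each served a pair of neighbouring genes, so the peak cannot be assigned to one of them. NOMO1 had 6.06 and 5.67. In all of these promoters the lower fold was at least 5.48. NOMO1, TXNL4A and CREB3L4 were among the genes with a gained start site. PARK7, ESF1, SPCS1 and SLC39A1 were not, since an untreated KO library had another peak within 1 kb of a start site.

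Among gained distal regions, one 4.52 kb from FOXJ2, a forkhead factor (chr12:8026825-8028200), had folds of 7.50 in OXPT A and 6.77 in OXPT B. An intronic region of SUGCT (chr7:40716970-40718596) had 6.20 and 7.56, and one of CHST6 (chr16:75483462-75485295) had 7.43 and 6.10. The region in SIN3A, the scaffold of a corepressor complex with class I histone deacetylases (chr15:75452953-75453976), had 5.99 and 6.22 and lay 1.05 kb from a start site. The CHST6 region was called in all 12 other libraries of the series, so that the untreated KO esiCT libraries were the ones without it. The SUGCT region was called in 11 of those 12. The other 6 named distal regions were in ZNF638, SIPA1L3, RAB31 and ATXN1 and near PHLDA1 and METRNL.

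Lost peaks were fewer, and the highest lower fold among them was 5.13, beside 6.77 among gained ones. The promoter region of IRF2BP2, a transcriptional corepressor (chr1:234610403-234610840), had a summit fold of 4.67 in UNT A and 5.35 in UNT B and no peak in the OXPT libraries. It lay inside a gained SE region over the IRF2BP2 start site (chr1:234603155-234618158). There peaks covered 2119 bp in UNT A, 1567 bp in UNT B, 3288 bp in OXPT A and 2032 bp in OXPT B. That was more after OXPT in both letters, although OXPT B lay below UNT A. A region 195 bp from MCL1, a survival protein of the BCL2 family and a substrate of FBXW7 (chr1:150579933-150580409), had 4.25 and 5.32. The start site of MCL1 itself kept a peak in OXPT A, at a fold of 3.90, from a neighbouring region. The remaining lost promoter regions included SIL1 with 4.46 and 4.78, POMGNT1 with 4.25 and 4.36 and UBE2S, a ubiquitin-conjugating enzyme of mitosis, with 3.88 and 5.71. Of these, SIL1 was among the genes with a lost start site given below, while POMGNT1 and UBE2S, like IRF2BP2, were not. Lost distal regions were led by an intron of IRAG1 (chr11:10670029-10671030) with 5.13 and 5.52. An exonic region of RAI1 (chr17:17684980-17685422) had 5.13 and 4.66 and lay inside the lost SE there. A region near SLC7A11, the cystine transporter (chr4:138347203-138348124), had 5.56 and 4.52, one in PCDH7 (chr4:30746540-30747518) had 5.63 and 4.50, and one in FRRS1 (chr1:99757062-99758370) had 4.41 and 4.39.

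Gained peaks and gained SEs coincided in part. Of the gained peak regions 58 lay in gained SE regions (5.21%, beside 1.83% of all peak regions), and 250 lay in any SE region (22.4%, beside 20.1%). A gained peak region was present in 47 of the 94 gained SEs (50%), beside 38 of the 148 SEs called in all 4 libraries. Lost peak regions lay in SEs called in all 4 libraries in 17 of 90 cases (18.9%, beside 5.92% of all regions). The SE calls rest on the same peaks, so these shares are a description.

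Seen by gene, 436 of 19618 protein-coding genes had a gained start site (2.22%) and 17 a lost one (0.0867%). A start site counted as called when a peak came within 1 kb. UNT A called 5577 genes, UNT B 1772, OXPT A 8889 and OXPT B 2726, so UNT A still called more than OXPT B. In WT cells under the same rule 13 genes were gained (0.0663%) and 1135 lost (5.79%). Both untreated WT libraries called 400 of the 436 gained genes (91.7%, beside 45.6% of all genes). WT esiCT OXPT A called 362 of them (83.0%, beside 45.9%) and OXPT B 154 (35.3%, beside 17.1%). Of all 19618 genes, 9587 were called in at least 1 of the 4 KO esiCT libraries. The shares of all genes therefore include many uncalled genes and lie low beside those of genes chosen for being called. The genes gained in KO cells were thus mostly called in untreated WT cells and in WT OXPT A. The untreated KO esiHDAC4 libraries, in which HDAC4 was silenced, called 329 (75.5%, beside 43.9%) in letter A and 9 (2.06%, beside 2.04%) in letter B.

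**Figure D4:**
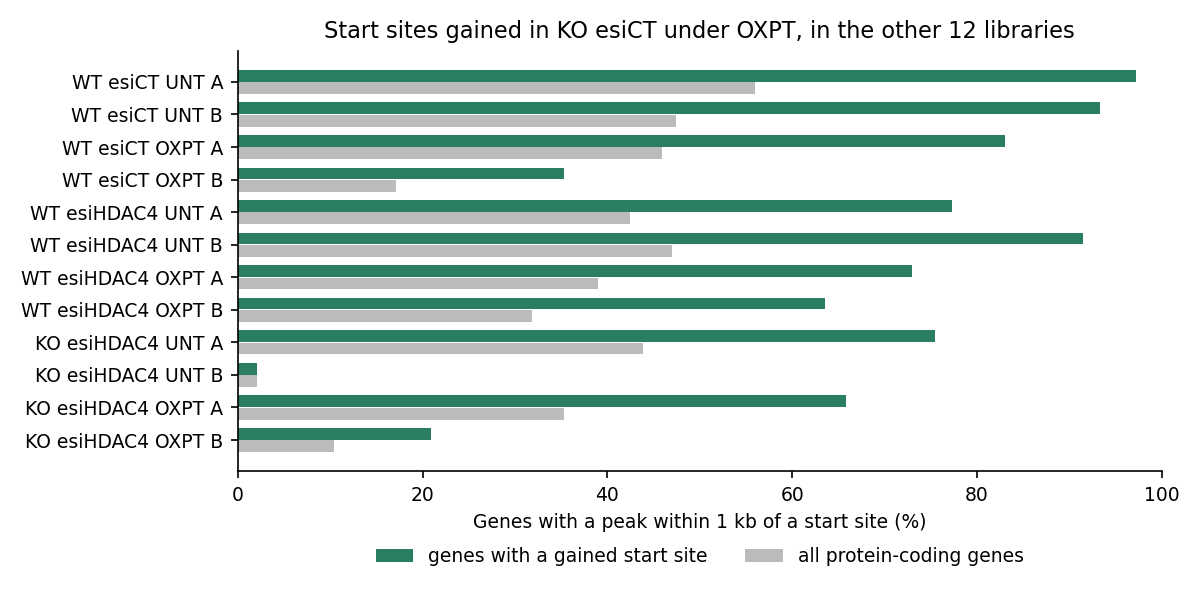
Share of genes (%, horizontal axis) with a peak within 1 kb of a start site in each of the 12 libraries outside KO esiCT, in green for the 436 genes gained in KO esiCT cells under OXPT and in grey for all protein-coding genes. The green bars reach 97.2% in WT esiCT UNT A and 93.3% in WT esiCT UNT B, and fall to 2.06% in KO esiHDAC4 UNT B.

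Genes with gained start sites beyond those above included USP48, a deubiquitinase, with summit folds of 5.98 in OXPT A and 5.86 in OXPT B. RBX1, the RING subunit of the ligases to which FBXW7 belongs, had 5.48 and 5.36. EIF4E, the cap-binding protein of translation, had 5.34 and 6.38, and PALB2, a partner of BRCA2 in DNA repair that shares its start with DCTN5, had 7.02 and 5.21. All 4 had a peak in both untreated WT libraries. The 17 genes with a lost start site were C17orf100, MED31, CAMSAP2, CHMP7, CPNE8, ECT2, GPALPP1, NUFIP1, PAFAH2, RAB18, SIL1, SLU7, UBLCP1, WHAMM, ZNF146, ZNF565 and ZNF226. WT esiCT UNT A called 17 of them, beside 56.0% of all genes, UNT B 15, beside 47.5%, OXPT A 11, beside 45.9%, and OXPT B 1, beside 17.1%. The KO esiHDAC4 UNT libraries called 13 in letter A and 0 in letter B, beside 43.9% and 2.04% of all genes.

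Of the 18 gene lists, 1 gene switched in KO cells. It was SESN1, a stress-induced p53 target that restrains mTORC1 (chr6:109008952-109009502), with summit folds of 7.50 in OXPT A and 5.06 in OXPT B and no peak in the UNT libraries. WT cells had a peak there in all 4 libraries. Of 15 p53 targets of arrest and feedback, 8 were called in UNT A, 4 in UNT B, 15 in OXPT A and 7 in OXPT B, so 1 of 15 (6.67%) was gained beside 2.22% of all genes. Of 10 p53 death targets the counts were 7, 3, 10 and 6, with none gained. Each list followed the order of list length, with OXPT A first. So did all protein-coding genes, of which UNT A called 28.4%, UNT B 9.03%, OXPT A 45.3% and OXPT B 13.9%.

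Single p53 targets differed between letters. CDKN1A, the cell cycle inhibitor p21, had a start-site peak in every library, with a summit fold of 4.97 in UNT A, 6.29 in UNT B, 6.84 in OXPT A and 9.60 in OXPT B. It was higher after OXPT in both letters, and the groups did not overlap. These are the highest folds within 1 kb of a start site. A CDKN1A region 97 bp from a start site (chr6:36678818-36680133) had 4.97, 4.80, 4.77 and 4.39 in that order, lower after OXPT in both letters. BBC3, the BH3 protein PUMA, had 5.40 in UNT A, no peak in UNT B, 3.87 in OXPT A and 3.99 in OXPT B. PMAIP1, the BH3 protein NOXA, had 3.79 in UNT A and 5.03 in OXPT A and no peak in the B libraries. FAS, a death receptor, had 3.85 in UNT A, none in UNT B, 5.37 in OXPT A and 4.84 in OXPT B. BBC3 and FAS were missing in UNT B alone, and the PMAIP1 call followed the letter.

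Among the 14 FBXW7 substrates, 10 were called in UNT A, 4 in UNT B, 14 in OXPT A and 4 in OXPT B, and none switched. The shares of all protein-coding genes were 28.4%, 9.03%, 45.3% and 13.9% in the same order. MYC had a summit fold of 7.88 in UNT A, none in UNT B, 5.22 in OXPT A and 5.76 in OXPT B. JUN had a peak in OXPT A alone, at 6.71, and HDAC4, a class IIa histone deacetylase, likewise at 5.10. Of 12 AP-1 and ATF factors 9, 2, 11 and 3 were called in UNT A, UNT B, OXPT A and OXPT B. Of 8 class IIa HDACs and MEF2 factors the counts were 5, 1, 7 and 2. None of these lists had a switched gene.

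WNT, epithelial and survival genes gave no switched start site either. RNF43 is a negative regulator of WNT signalling. Its highest start-site summit fold was 4.81 in UNT A, 7.29 in UNT B, 9.36 in OXPT A and 7.63 in OXPT B. Among peaks within 1 kb of a start site, both treated values thus lay above both untreated ones. In the region with these treated folds the centred log2 change, described below, was -0.01 in letter B. Another RNF43 region over a start site (chr17:58394931-58405521) had 6.90, 5.88, 6.40 and 5.85 in the same order, lower after OXPT in both letters. Its centred log2 difference was -0.14, and that of a region 331 bp from a start site was -0.20. NR4A2, an orphan nuclear receptor, had 6.04, 3.09, 7.60 and 4.56 in that order among peaks within 1 kb of a start site. On that measure both letters were higher after OXPT and the groups overlapped. In both NR4A2 promoter regions called in all 4 libraries, OXPT B lay below UNT B, at 4.56 against 4.77 and 4.28 against 4.59. For the 13 WNT genes the counts called were 7 in UNT A, 5 in UNT B, 8 in OXPT A and 2 in OXPT B. For the 14 intestinal lineage factors they were 6, 0, 8 and 1, and for the 10 genes of the EGFR family and its ligands 8, 6, 8 and 5. For 22 adhesion and junction genes they were 17, 8, 19 and 11, for 22 genes of platinum transport and repair 7, 3, 12 and 5, and for 24 respiratory chain genes 12, 8, 22 and 9. The counts for 16 BCL2 family genes were 7, 3, 11 and 3, for 11 TGF-beta genes 5, 1, 10 and 1, for 12 YAP and TEAD genes 6, 3, 9 and 2, and for 13 NF-kB targets 3, 0, 5 and 1. NR4A2 was the only one of the 3 NR4A receptors called in any of the 4 libraries. In every list OXPT A called at least as many genes as each other library. Across all protein-coding genes UNT A called 28.4%, UNT B 9.03%, OXPT A 45.3% and OXPT B 13.9%.

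In the 2034 regions that were called in all 4 libraries, the summit fold was compared with limma on the log2 scale, each library centred on its median. No region passed an adjusted p of 0.05, and 98 (4.82%) had an unadjusted p below 0.05, 47 higher and 51 lower after OXPT. The smallest adjusted p was 0.760 (limma with Benjamini-Hochberg adjustment). The standard error of each log2 difference was 0.247, shared by all regions. Only 1031 regions (50.7%) changed in the same direction in both letters, 479 up and 552 down, and across the 2034 regions the changes in A and B had a correlation of 0.0096, given as a description because regions share libraries and depth. Without centring the median log2 change was 0.07 in each letter.

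Some of the regions with the smallest p are given as values that did not pass. One region 123 kb from GJE1 (chr6:142006740-142009624) had a summit fold of 5.03 in UNT A, 3.71 in UNT B, 8.11 in OXPT A and 7.89 in OXPT B, a log2 difference of 0.80 (limma adjusted p = 0.760). The promoter of BTF3, a transcription and translation factor (chr5:73497273-73499694), had 4.12, 3.01, 5.999 and 6.92, a difference of 0.79. In both regions the treated libraries lay above the untreated ones. An intronic region of SSH1 (chr12:108837047-108840944), inside the gained SE there, went from 9.21 and 7.11 in UNT to 4.48 and 5.41 in OXPT, a difference of -0.80. An intronic region of GRIN2B, a glutamate receptor subunit (chr12:13574129-13576784), went from 8.28 and 8.86 to 5.45 and 5.39, a difference of -0.74. One in IGF2BP3, an RNA-binding protein (chr7:23350115-23351297), went from 8.67 and 7.59 to 6.17 and 4.22, a difference of -0.75. Here both treated libraries lay below both untreated ones. When only the 462 regions with a −log10 q of at least 5 in every library were tested, 1 region passed, that of SSH1, with a difference of -0.76 and a limma adjusted p of 0.0481.

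**Figure D5:**
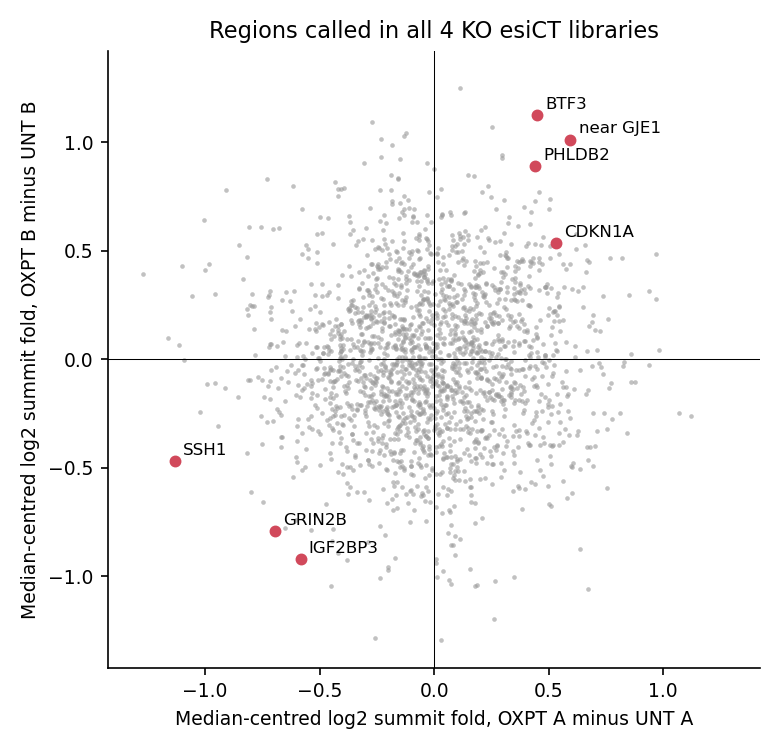
Change in log2 summit fold after OXPT, centred on the library medians, in letter A (horizontal axis) and letter B (vertical axis) for the 2034 regions called in all 4 KO esiCT libraries, with 7 named regions in red. The cloud is round, with 479 regions up and 552 down in both letters and a correlation of 0.0096.

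Of the list genes, CDKN1A had the smallest p before adjustment. Its region over the start site (chr6:36674711-36678450) had summit folds of 4.44 in UNT A, 6.29 in UNT B, 6.84 in OXPT A and 9.60 in OXPT B, a log2 difference of 0.53 (limma adjusted p = 0.947). A region 287 bp from a start site of NR4A2 (chr2:156333049-156335600) had 5.37, 4.59, 3.17 and 4.28, a difference of -0.51 with the same adjusted p of 0.947 in limma, while another 722 bp from a start site (chr2:156339811-156341626) had a difference of 0.08. A second CDKN1A region, 97 bp from a start site (chr6:36678818-36680133), had a difference of -0.18. For RNF43 a region over a start site (chr17:58405529-58417494) had a difference of 0.41, from centred changes of 0.83 in letter A and -0.01 in letter B. Another RNF43 region over a start site (chr17:58394931-58405521) had -0.14. The RNF43 region 331 bp from a start site (chr17:58417913-58419018) had -0.20. None of these passed.

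The response was also compared between genotypes in the 1496 regions that all 8 esiCT libraries called. No region passed in limma, the smallest adjusted p was 0.215, and 89 (5.95%) had an unadjusted p below 0.05. Without centring 400 had one, 396 of them with a more positive change in KO than in WT cells, and the median difference of the changes was 0.45 on the log2 scale.

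Motifs were counted in the 201 bases around the summits. KLF/SP (GGGNGGGG) was present in 60 of the 480 gained promoter windows, beside 2553 of all 12160 promoter windows (21.0%), and in 5.68% of the 634 gained distal windows, beside 7.99% of all 15362. Among regions called in all 4 libraries it was in 17.8% of promoter and 4.38% of distal windows. AP-1 (TGANTCA) was present in 4.38% of gained promoters, beside 3.00% of all and 4.64% of those called in all 4 libraries. In gained distal windows the AP-1 share was 5.36%, beside 5.76% of all and 5.78% of those called in all 4 libraries. AP-1 was present in 7 of 63 lost distal windows (11.1%), PCDH7, FRRS1 and SIK2 among them. The MEF2 motif was present in 4.38% of gained promoters, beside 2.01% of all and 3.85% of those called in all 4 libraries. In gained distal windows the MEF2 share was 5.68%, beside 3.92% of all and 6.09% of those called in all 4 libraries.

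The other motifs were rarer, and none of the motifs searched contains another. ETS (CCGGAAG) was in 2.92% of gained promoters, beside 3.13%, and in 1 gained distal window (0.158%), beside 0.944%. TCF/LEF (CTTTGAT) was in 1.46% of gained promoters, beside 1.37%, and in 3.00% of gained distal windows, beside 2.49%. AGATAAG, the motif of GATA factors, was in 1.25% beside 1.45% and in 2.21% beside 2.43%. The full p53 motif was in no gained promoter and in 1 gained distal window. The median GC content of promoter windows was 50.7% in gained, 50.7% in lost, 52.7% in those called in all 4 libraries and 59.2% in all. For distal windows it was 42.3% in gained, 40.3% in lost, 40.8% in those called in all 4 libraries and 45.8% in all. Gained windows were thus poorer in GC than all windows, as were lost ones and those called in all 4 libraries. GC content moves with the share of GC-rich motifs, and its part in these shares was not tested.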

How the data were processed

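H3K27ac ChIP-seq lists of 16 libraries were used, 4 of them KO esiCT; 4 input samples in the labels were not used here. Per the study's methods, the authors trimmed paired-end reads (Trimmomatic 0.39), aligned them to hg38 (Bowtie2 2.4.4), removed duplicates (SAMtools 1.18), called peaks per library (MACS2 2.2.7.1) and stitched peaks within 12.5 kb into SEs with ROSE. The methods do not name the control of each call. The study's methods restrict SEs to those that also carry H3K4me1, but do not say whether the deposited lists had passed that step. The deposited peak lists hold a score made from q, the summit fold as a ratio over the local background, and −log10 p and −log10 q; a q of 0.05 was the limit. The deposited SE lists hold positions only.

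Positions were numbered from 1, and genes were taken from GENCODE release 44. Depth was recovered from fold and p, as the background under a summit; for WT esiCT UNT B it could not be recovered. Summit folds of regions called in all libraries were compared with limma 3.58.1 in R 4.3.3 on log2 values with replicate letter as a block, after the study's own design, and Benjamini-Hochberg adjustment. Numbers per library were compared with exact permutation tests in Python 3.11.15 (NumPy 2.4.6, pandas 2.3.3, SciPy 1.17.1). The limma step was tested on simulated data. The letters come from the labels. Deviations from the group means correlated at 0.294 between UNT and OXPT of the same letter, across regions, and with 2 letters the pairing was taken from the study's design. P-values measure the spread between these libraries. Named were the 15 gained SEs with the longest shared stretch and all lost ones. Peak regions were drawn from the 10 promoter and 10 distal regions of each direction with the highest lower fold. Limma regions were drawn from the 5 of each direction with the smallest p. Switched list genes and FBXW7, HDAC4, RNF43, NR4A2, PMAIP1 and BBC3 were named too. Some of the lost peak regions and limma regions in these sets are not given above. A region was named by the start site it covers, else its gene, else the nearest start site. Of the 10 gained promoters 1 is not reported here. Other genes were named after their values were seen. The members and gene lists were chosen with earlier results of these data known.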

Additional observations from a re-analysis of the deposited data

Results flagged for a closer look

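The response of SE number to OXPT had opposite signs in KO and WT esiCT cells in every letter pair, and the difference of the mean log2 ratios was 2.74. Per 1000 peaks the difference was 1.40. The number of peaks also had opposite signs, with a difference of 1.34. For each of them the exact permutation test of the genotype over 4 pairs gave p = 0.33, the smallest possible. The WT libraries had lists of 10562 to 27927 peaks and the KO libraries of 6126 to 21875, and the part of depth in the difference was not tested.

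Peaks outside chromosomes 1 to 22 and X were in no comparison. There were 50 in OXPT A and 31 in OXPT B, above the 27 in UNT A and 20 in UNT B. As a share of all peaks of a library they were 0.228% and 0.376% in the treated and 0.213% and 0.325% in the untreated libraries.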

How the results depend on the processing

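The direction of SE number, peak number, promoter share and the differences between KO and WT cells was kept in every alternative tried. Counts of switched regions moved more. With a −log10 q of at least 10, gained peak regions numbered 51 and lost ones 3, and in lists cut to equal length 366 and 216. Leaving out a library leaves 1 on its side, so the rule becomes looser by construction. Leaving out letter A or letter B, or a single library, (the single libraries were added after seeing the data) gave 138 to 659 gained and 6 to 61 lost SE regions, and 1552 to 13205 gained and 134 to 3242 lost peak regions. By library, gained and lost SE regions were 150 and 19 without UNT A, 138 and 17 without UNT B, 157 and 18 without OXPT A and 588 and 6 without OXPT B. For peaks they were 2451 and 1160, 1552 and 3064, 2868 and 775, and 12247 and 134 in that order, so lost regions outnumbered gained ones without UNT B. The named SE regions at SOCS3, SPATS2 and PHLDB2 were not gained at 50% coverage. Of the 20 named gained and 20 named lost peak regions none remained at a −log10 q of at least 10. At 50% coverage 13 and 14 remained, with NR1H2, TXNL4A, CHST6 and SIN3A among those that did not. With merging within 500 bp 14 and 11 remained, without PARK7, IRF2BP2, MCL1, SLC7A11 and PCDH7 among others, and with regions from all 16 libraries 16 and 9. In lists of equal length 20 and 11 remained. In limma the count stayed at 0 except in the 462 regions of high q, where it was 1, and unadjusted p-values below 0.05 numbered 31 to 127. Without the replicate block no region passed in limma and 41 had an unadjusted p below 0.05, and the exact permutation p was 0.33 for SEs, 0.667 for peaks and 0.667 for the promoter share; the block changed no call. Of 153 alternatives, 126 were classed as unchanged, 26 moved a count and 1 made a result stronger. Unchanged means the same direction, a similar count or, for a named limma region, the same side of the threshold, and the size could differ. Named limma regions, none of which passed in the main fit, made up 73 of the unchanged. For the other results 53 were unchanged and 26 moved. Depth limits every absence: where local background equalled the library's own, no peak below a fold of 3.49 could be called in OXPT B.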

Other observations

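Of the 94 gained SE regions, 8 were SEs in no WT esiCT library, beside 229 of all 1024 regions. They lay near GALNT5, NECTIN3, CWH43, ACTBL2, ECHDC3 and KIF18A, in an exon of SEMA3A and in an intron of FRMD5. Near ACTBL2 (chr5:57822728-57842585) peaks covered 0 bp in both UNT libraries, 4344 bp in OXPT A and 1133 bp in OXPT B. At SEMA3A, a guidance cue for axons and vessels (chr7:84022200-84057423), they covered 2695 bp in UNT A, 383 bp in UNT B, 7350 bp in OXPT A and 1575 bp in OXPT B. The region near CWH43 lay 723 kb from that start site (chr4:49709341-49711889), and its highest summit fold was 1.97 in OXPT A and 2.47 in OXPT B, far below the median of 5.50 and 5.39 over all gained SEs.

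Of the 436 genes with a gained start site, 4 were called in no WT esiCT library. SYNE1, which ties the nucleus to the cytoskeleton, had summit folds of 4.02 in OXPT A and 4.18 in OXPT B. RABEPK had 4.50 and 3.81, ZNF684 had 3.499 and 3.65, and FAM86B1 had 4.47 and 3.49. FAM86B1 belongs to a family of near-identical copies, and reads cannot be assigned to one of them with certainty.

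Gained peak regions were found on every chromosome, from 2.79% of the regions of chromosome 17 to 6.45% of those of chromosome 21. Chromosome 11 held 12 of the 90 lost regions, beside 1373 of all 27522, and chromosome 1 held 16, beside 2713.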
